A study of Arabidopsis thaliana with 24 samples.

Results

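Replicates 1 and 2 of the shoots kept on dexamethasone (Dex) for 7 days parted from replicates 3 and 4 of the same shoots, in both genotypes, and this division within 1 treatment is the subject here. Its members are 8 of the 24 shoot libraries of the study: EXPA1 OE replicates 1 and 2 and WT replicates 1 and 2 (4 libraries), set against EXPA1 OE replicates 3 and 4 and WT replicates 3 and 4 (4 libraries), with the genotype as a covariate. The division was first seen in a principal component of these same libraries, so the sizes and counts given for it at 7 days are a description and carry no p-value. No source used here says what the replicate numbers stand for, for example a sowing, a harvest or a library preparation. WT libraries without Dex parted between the same replicate numbers too, as given below.

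All seedlings were Arabidopsis thaliana of the Col-0 background, 7 days old, grown on MS medium in 16 h light and 8 h dark at 21 °C by day and 19 °C by night, and only shoots were taken. The EXPA1 OE line is line 8-4, a single line in which Dex switches on the expansin gene EXPA1 through the pRPS5A>GR>EXPA1 system, a steroid-dependent activator driven by a promoter active in dividing tissue; WT seedlings on Dex lack the transgene. The 16 other libraries are the same genotypes after 3 h of Dex and without Dex, with 4 biological replicates per genotype and treatment. The unit throughout is the count of reads per gene estimated by RSEM, shown as CPM, the count scaled to the size of the library, and differences are log2 values of replicates 1 and 2 minus replicates 3 and 4.

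Plants that run short of sulphate, phosphate or iron switch on separate sets of genes that take up, release or save the missing nutrient, and each set is widely used as a marker of that state. A further set is switched on when sugar runs low, as at the end of a long night or in the dark, and overlaps with genes that follow the circadian clock. The clock itself consists of genes that peak at dawn and genes that peak towards dusk and repress one another. Flavonoid and anthocyanin genes respond to light, sugar and nutrient supply.

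The promoters of 6 genes are shown because they carry the short motifs that these gene sets are known for, and because these genes recur in the results. Each window runs from 250 bases before to 50 bases after the annotated start, 300 bases read 5′ to 3′ on the strand of the gene, from RefSeq assembly TAIR10.1. In the first 3, of the phosphate starvation genes PS2 (chr1:27466299-27466598, minus strand), SPX3 (chr2:18606160-18606459, plus strand) and GDPD1 (chr3:349961-350260, minus strand), capitals mark GNATATNC, the motif bound by the phosphate regulator PHR1.
PS2: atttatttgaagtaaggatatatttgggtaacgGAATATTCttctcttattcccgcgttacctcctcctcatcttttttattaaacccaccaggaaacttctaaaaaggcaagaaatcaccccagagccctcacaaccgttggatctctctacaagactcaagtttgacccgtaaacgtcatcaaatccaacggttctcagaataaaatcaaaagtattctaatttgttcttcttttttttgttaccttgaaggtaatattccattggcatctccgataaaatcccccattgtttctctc
SPX3: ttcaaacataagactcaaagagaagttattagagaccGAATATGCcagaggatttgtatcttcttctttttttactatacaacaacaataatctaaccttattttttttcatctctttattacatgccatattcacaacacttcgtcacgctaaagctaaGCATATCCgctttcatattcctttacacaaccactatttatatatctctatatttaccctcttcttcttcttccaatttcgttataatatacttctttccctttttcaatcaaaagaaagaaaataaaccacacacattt
GDPD1: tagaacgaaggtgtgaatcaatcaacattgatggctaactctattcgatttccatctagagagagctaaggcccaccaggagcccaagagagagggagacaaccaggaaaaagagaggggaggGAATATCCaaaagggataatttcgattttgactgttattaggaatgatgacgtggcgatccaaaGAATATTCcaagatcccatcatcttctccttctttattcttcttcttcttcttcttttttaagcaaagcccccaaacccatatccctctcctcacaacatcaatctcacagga
In the other 3, of the evening clock genes PRR5 (chr5:8358497-8358796, minus strand) and LUX (chr3:17182792-17183091, plus strand) and of AT2G15960 (chr2:6946846-6947145, plus strand), annotated as a stress-induced protein, capitals mark the evening element AAATATCT on either strand.
PRR5: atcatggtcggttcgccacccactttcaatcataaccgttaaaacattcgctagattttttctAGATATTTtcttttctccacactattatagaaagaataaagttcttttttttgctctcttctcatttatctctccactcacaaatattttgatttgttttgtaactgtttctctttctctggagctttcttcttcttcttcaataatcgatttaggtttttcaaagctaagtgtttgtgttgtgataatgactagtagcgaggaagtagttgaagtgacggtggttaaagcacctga
LUX: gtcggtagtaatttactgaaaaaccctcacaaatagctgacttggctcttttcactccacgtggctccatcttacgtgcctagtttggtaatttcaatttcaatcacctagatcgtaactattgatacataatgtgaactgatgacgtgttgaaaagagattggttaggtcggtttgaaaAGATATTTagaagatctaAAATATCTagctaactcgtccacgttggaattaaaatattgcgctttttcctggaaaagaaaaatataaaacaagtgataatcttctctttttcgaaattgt
AT2G15960: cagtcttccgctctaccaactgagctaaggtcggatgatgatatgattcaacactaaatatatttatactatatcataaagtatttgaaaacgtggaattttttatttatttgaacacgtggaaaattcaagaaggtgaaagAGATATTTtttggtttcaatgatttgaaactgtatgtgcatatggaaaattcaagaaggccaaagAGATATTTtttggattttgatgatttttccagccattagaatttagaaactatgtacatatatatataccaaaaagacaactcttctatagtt

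The total count of the 8 libraries was 33.6 M to 39.96 M reads in EXPA1 OE and 58.1 M to 79.9 M reads in WT. EXPA1, the targeted gene, stood at 15652, 14035, 10917 and 12344 CPM in EXPA1 OE replicates 1 to 4, against 405, 501, 362 and 281 CPM in WT replicates 1 to 4, which fits the labels of all 8. Of the 39 nuclear photosynthesis genes, which mark green tissue, all were detected, and they summed to 155183 to 169734 CPM in replicates 1 and 2 and to 116113 to 143935 CPM in replicates 3 and 4. Several properties of the libraries moved with the pairs within each genotype. Reads of mitochondrial genes were 0.0195% and 0.0279% of the EXPA1 OE total in replicates 1 and 2, against 0.0378% and 0.0506% in replicates 3 and 4, and 0.0219% and 0.0337% of the WT total, against 0.0368% and 0.0452%. The 10 most abundant genes took 11.4% and 10.8% of the EXPA1 OE reads in replicates 1 and 2, against 9.36% and 9.19% in replicates 3 and 4, and 10.2% and 10.5% of the WT reads, against 9.22% and 9.48%. Reads of rRNA genes were 0.256% and 0.415% in EXPA1 OE, against 0.479% and 0.766%, and 0.458% and 0.596% in WT, against 0.625% and 0.658%. Genes detected numbered 22615 and 22992 in EXPA1 OE, against 23231 and 23348, and 23255 and 23388 in WT, against 23435 and 23691, and the exon count as a share of the RSEM count was also apart by a little, at 95.8% to 97.8% in all. Their part in the results was not tested.

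Over all 24 libraries, component 1 held 38.0% of the variance in log2 CPM and component 2 held 14.1%. On component 2 the EXPA1 OE shoots at 7 days scored 54.8 and 23.7 in replicates 1 and 2, against -28.8 and -42.6 in replicates 3 and 4. WT shoots at 7 days scored 5.6 and -8.1 in replicates 1 and 2, against -42.1 and -43.2 in replicates 3 and 4. Both genotypes thus moved the same way by a distance that exceeded the gap between the members of a pair. Component 2 also parted the genotypes without Dex, at 32.5 to 55.3 in EXPA1 OE and -24.8 to -14.7 in WT. Its share of the variance is therefore not that of the pairs alone. Pairwise correlations of log2 CPM across genes were 0.983 to 0.992 within a pair and 0.955 to 0.980 between pairs of the same genotype, and genes are not independent replicates. No 2 libraries agreed within sampling noise, since the chi-square per degree of freedom was 12.04 to 17.0 within a pair and 51.2 to 123 between pairs.

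**Figure D1:**
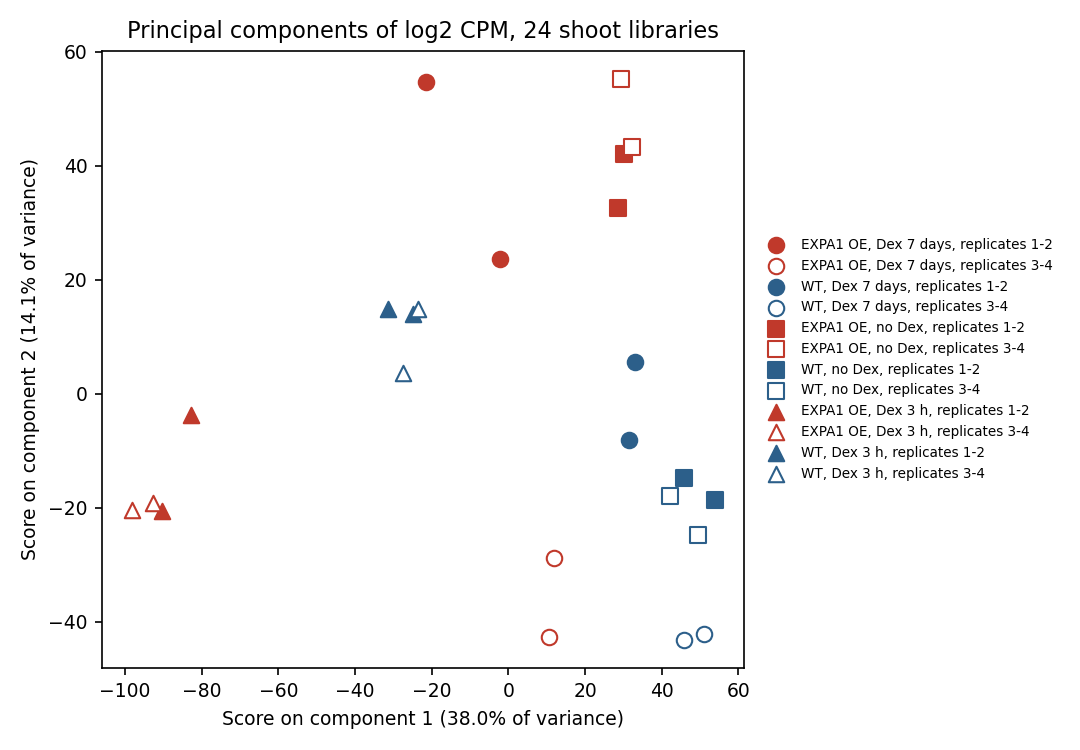
Scores of the 24 libraries on the first 2 principal components of log2 CPM (filled, replicates 1 and 2; open, replicates 3 and 4; red, EXPA1 OE; blue, WT; circles, Dex for 7 days). The filled circles lie above the open circles of their own genotype on component 2, by 5.6 and -8.1 against -42.1 and -43.2 in WT.

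Of 21194 genes tested at 7 days, 285 were higher in replicates 1 and 2 and 715 were lower, by an adjusted p under 0.05 with a log2 difference of at least 1, the thresholds of the study. These are 1.34% and 3.37% of the genes tested, 4.72% together, and since the division was chosen on these libraries nothing is read from the counts themselves. Counts of called list members below stand beside these shares. The higher genes had a median log2 difference of 1.33 and the lower genes one of -1.38, against 0.00 over all genes tested. In 215 of the 285 and in 485 of the 715, all 4 libraries of one pair lay beyond all 4 of the other, which held for 20.4% of all genes tested. Samples of whole shoots cannot tell fewer cells of a type from less RNA per cell.

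The gene with the largest positive difference among called genes with a mean of at least 1 CPM and no overlap between the pairs was AT2G33830, a dormancy and auxin associated protein gene. It stood at 193 and 103 CPM in EXPA1 OE and 40.1 and 41.4 CPM in WT in replicates 1 and 2, against 15.3 and 10.9 CPM in EXPA1 OE and 2.17 and 3.51 CPM in WT in replicates 3 and 4, a log2 difference of 3.66 (SE 0.24). The lowest library of replicates 1 and 2 was thus above the highest of replicates 3 and 4, whatever the genotype. The next were ASN1 (3.38), PRR5 (3.00), AT2G15960 (2.91), SEN1 (2.87), AT3G43850 (2.86), of unknown function, AT3G62950 (2.79), a thioredoxin family member, AT2G15880 (2.67), a leucine-rich repeat protein, the thioredoxin WCRKC1 (2.55) and the cold regulator CBF2 (2.44, range 1.86 to 2.87 with 1 library left out, and not past the call rule without WT replicate 3). At the other end, 4 of the 10 largest negative differences belonged to SDI1, LSU1, LSU2 and LSU3, markers of sulphur shortage, and 2 to the phosphate genes PS2 and MGD3.

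Sucrose exporter SWEET13, also among the 10, stood at 0.443 and 2.52 CPM in EXPA1 OE and 0.511 and 0.362 CPM in WT in replicates 1 and 2, against 22.3 and 31.5 CPM in EXPA1 OE and 2.97 and 2.703 CPM in WT in replicates 3 and 4 (log2 difference -3.57, SE 0.47). The remaining 3 were AT3G17998 (-5.45), AT1G23110 (-3.70) and AT5G53048 (-3.62). Each of these overlaps another annotated gene, AT3G18000, AT1G23100 and AT5G53050 in that order, so reads could have been split between neighbours. AT3G17998 was listed at 0 in all 24 libraries of the exon counts. By RSEM its libraries ranged widely, at 0.0591 and 0 CPM in EXPA1 OE and 1.35 and 0.345 CPM in WT, against 19.4 and 1.63 CPM in EXPA1 OE and 29.5 and 23.0 CPM in WT.

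Sulphur deficiency genes had the median farthest from 0 of the 47 lists. All 11 of 11 tested were lower in replicates 1 and 2, past the call rule in each case, with a median log2 difference of -3.17 and a range that kept all 11 when any single library was left out (medians from -3.63 to -2.88). LSU2, a small protein induced by low sulphate, stood at 0.532 and 0.545 CPM in EXPA1 OE and 1.86 and 0.689 CPM in WT in replicates 1 and 2, against 6.76 and 15.0 CPM in EXPA1 OE and 19.1 and 16.3 CPM in WT in replicates 3 and 4 (log2 difference -3.997, SE 0.36). No library of one pair reached the level of the other. The same order held for SDI1, which restrains glucosinolate synthesis when sulphur is short, at 0.325 and 0.285 CPM in EXPA1 OE and 0.886 and 0.362 CPM in WT, against 6.05 and 19.4 CPM in EXPA1 OE and 8.86 and 7.68 CPM in WT (-4.37, SE 0.50).

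Sulphate assimilation itself was represented by the APS reductases, which carry out its controlling step. APR1 stood at 5.88 and 14.5 CPM in EXPA1 OE and 36.7 and 15.8 CPM in WT in replicates 1 and 2, against 107 and 165 CPM in EXPA1 OE and 176 and 159.8 CPM in WT in replicates 3 and 4 (log2 difference -3.17, SE 0.38). APR3 (-3.31) and APR2 (-2.34) went the same way, as did the vacuolar sulphate exporter SULTR4;2 (-1.71), the serine hydroxymethyltransferase SHM7 (-1.99) and GGCT2;1 (-2.91), an enzyme of glutathione breakdown. BGLU28, a beta-glucosidase that acts on glucosinolates, was the least alike in the genotypes, at 0.650 and 0.337 CPM in EXPA1 OE replicates 1 and 2 against 5.71 and 13.1 CPM in replicates 3 and 4, and at 0.733 and 0.207 CPM in WT against 0.940 and 1.80 CPM. The 11 genes summed to 100.2 to 217 CPM in the 4 libraries of replicates 1 and 2, and to 655 to 934 CPM in the 4 libraries of replicates 3 and 4.

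**Figure D2:**
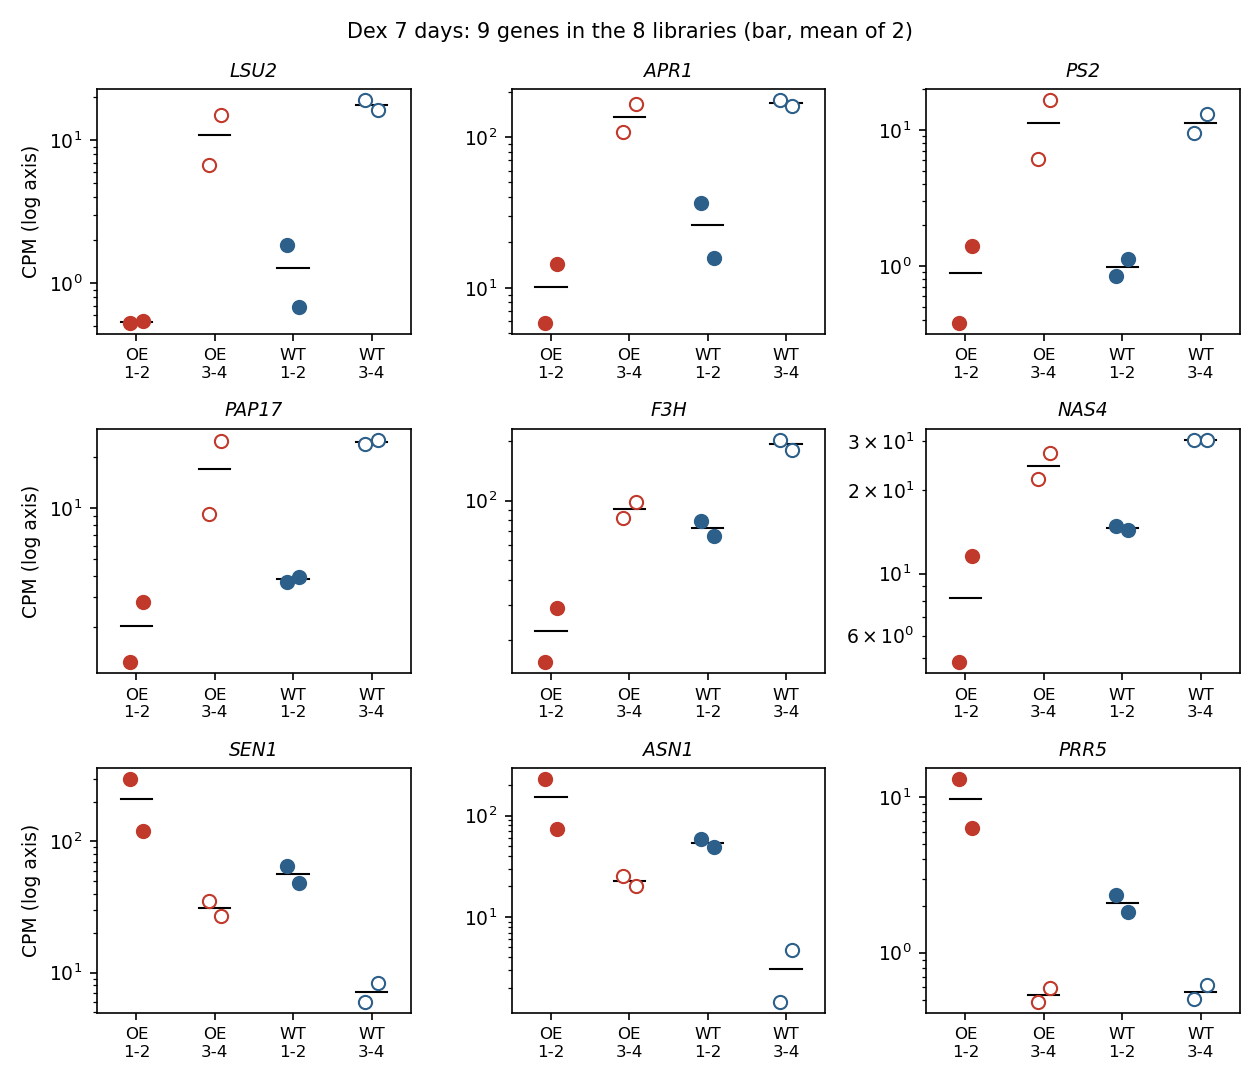
CPM on a log axis of 9 genes in the 8 libraries at 7 days (points, libraries; bars, means of 2; filled, replicates 1 and 2; open, replicates 3 and 4). LSU2, APR1, PS2, PAP17 and NAS4 lie lower in replicates 1 and 2 in all 4 libraries and SEN1, ASN1 and PRR5 lie higher, with ASN1 at 229, 74.1, 58.4 and 49.1 CPM against 25.1, 20.0, 1.46 and 4.68 CPM.

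Phosphate starvation genes were lower in replicates 1 and 2 for 12 of 15 tested, with a median of -1.61, and in 14 of the 15 all 4 libraries of replicates 1 and 2 lay below all 4 of replicates 3 and 4 (over all genes tested, 9.79% did so). PS2, a phosphatase, stood at 0.384 and 1.40 CPM in EXPA1 OE and 0.852 and 1.12 CPM in WT in replicates 1 and 2, against 6.10 and 16.6 CPM in EXPA1 OE and 9.57 and 13.1 CPM in WT in replicates 3 and 4 (-3.57, SE 0.40). PAP17, an acid phosphatase, stood at 1.24 and 2.80 CPM in EXPA1 OE and 3.70 and 3.95 CPM in WT, against 9.21 and 24.9 CPM in EXPA1 OE and 23.9 and 25.3 CPM in WT (-2.85, SE 0.33). In both genes replicate 3 of EXPA1 OE was the lowest of its pair group, and still above every library of replicates 1 and 2.

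The same set holds enzymes that replace phospholipids by galactolipids and sulpholipids. Of these MGD3 (-3.57) and MGD2 (-1.20) passed the call rule, MGD2 not without EXPA1 OE replicate 4 (-0.99), whereas the sulpholipid synthases SQD1 (-0.55) and SQD2 (-0.71) did not reach the fold. The phosphate sensors SPX1 (-1.69) and SPX3 (-2.82), the phosphatase PEPC1 (-3.38), the phosphodiesterase GDPD1 (-1.63), the phospholipase PLDZETA2 (-1.61), the phosphate exporter PHO1;H1 (-1.49) and the transporter PHT1;4 (-1.16) were all lower. RNS1, a ribonuclease, had a difference of -1.55, with a range of -1.87 to -1.23 when 1 library was left out, and was not past the call rule without EXPA1 OE replicate 1 or replicate 2. The main phosphate importer PHT1;1 had a difference of -0.47 and did not pass.

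Iron homeostasis genes were lower for 7 of 16 tested, with a median of -1.28, and this count went down to 4 when single libraries were left out. Over all genes tested 3.37% were lower. Among the iron genes past the call rule were 2 nicotianamine synthases, NAS1 and NAS4, which make a metal carrier. NAS4 stood at 4.82 and 11.6 CPM in EXPA1 OE and 14.8 and 14.4 CPM in WT in replicates 1 and 2, against 21.8 and 27.0 CPM in EXPA1 OE and 30.3 and 30.1 CPM in WT in replicates 3 and 4 (log2 difference -1.29, SE 0.23), with no overlap, and NAS1 (-1.27) was similar. The peptide genes AT1G47400 (-1.71) and AT1G47395 (-1.75), known as IMA1 and IMA2, were also lower. The regulators BHLH38 (-2.26), BHLH100 (-2.40) and BHLH101 (-1.44) passed the call rule, but none of them did without EXPA1 OE replicate 3, EXPA1 OE replicate 4 or WT replicate 4 (ranges -3.08 to -1.86, -3.25 to -1.98 and -1.80 to -1.03 in that order), and BHLH101 was lost without EXPA1 OE replicate 1, WT replicate 1 or WT replicate 2 too. Their levels varied within pairs, with BHLH38 at 0.443 and 3.43 CPM in EXPA1 OE replicates 1 and 2 against 12.1 and 13.4 CPM in replicates 3 and 4, and at 2.66 and 0.310 CPM in WT against 3.29 and 7.27 CPM. The iron store FER1, which is usually high when iron is ample, was lower too without reaching the fold (-0.69, SE 0.10).

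Flavonoid and anthocyanin genes were lower in replicates 1 and 2 for 18 of 21 tested, with a median of -1.57. F3H, an early enzyme of the pathway, stood at 15.4 and 28.9 CPM in EXPA1 OE and 78.7 and 66.6 CPM in WT in replicates 1 and 2, against 82.2 and 98.8 CPM in EXPA1 OE and 203 and 181 CPM in WT in replicates 3 and 4 (log2 difference -1.70, SE 0.20). The 4 libraries of replicates 1 and 2 lay below the other 4 with a narrow gap, since WT shoots had more of this transcript than EXPA1 OE shoots in both pairs. With the genotypes mixed, all 4 libraries of replicates 1 and 2 lay below the other 4 in 5 of 21 genes of the pathway. Over all genes tested 9.79% did so, and in either direction the pairs lay fully apart in 20.4%. CHS, the entry enzyme, was at 127 and 187 CPM in EXPA1 OE and 423 and 441 CPM in WT, against 374 and 405 CPM in EXPA1 OE and 773 and 803 CPM in WT (-1.08, SE 0.13, and -0.95 and not past the call rule without EXPA1 OE replicate 1). The anthocyanin regulators PAP1 (-2.37) and TT8 (-1.83) and the late enzymes DFR (-1.62), LDOX (-1.46) and UF3GT (-1.71) were lower, as was PAL1 (-1.28), which feeds the pathway from phenylalanine. MYB12, MYB111 and EGL3 did not pass, at -0.48, -0.92 and -0.40.

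Genes of carbon starvation went the other way, with 9 of 21 tested higher in replicates 1 and 2, none lower, and a median of 0.99. Over all genes tested 1.34% were higher. SEN1, a classical marker of darkness, stood at 299 and 119.7 CPM in EXPA1 OE and 64.8 and 48.5 CPM in WT in replicates 1 and 2, against 35.2 and 26.9 CPM in EXPA1 OE and 6.01 and 8.30 CPM in WT in replicates 3 and 4 (log2 difference 2.87, SE 0.28). ASN1, which makes asparagine when carbon is scarce, was at 229 and 74.1 CPM in EXPA1 OE and 58.4 and 49.1 CPM in WT, against 25.1 and 20.0 CPM in EXPA1 OE and 1.46 and 4.68 CPM in WT (3.38, SE 0.48). Neither gene overlapped between the pairs, and in both EXPA1 OE replicate 1 was the highest library.

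DYL1 (2.21), a dormancy associated gene, MCCA (1.81) and BCAT2 (2.17), which break down branched amino acids, the trehalose phosphate synthase relatives TPS10 (1.47) and TPS11 (1.08), the hexose importer STP1 (1.79) and DIN10 (1.45), a raffinose synthase relative, were higher as well. TPS11 did not pass without WT replicate 3 (0.92). STP1 stood far higher in EXPA1 OE than in WT in both pairs, at 1405 and 884 CPM in EXPA1 OE replicates 1 and 2 against 438 and 347 CPM in replicates 3 and 4, and at 158 and 139 CPM in WT against 29.4 and 43.4 CPM. The set did not move as a whole: BGLU30 (-0.53), DIN9 (-0.20) and the factors BZIP2 (-0.11) and BZIP11 (-0.46) had negative differences and did not pass.

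The clock genes that peak towards dusk had a median of 0.88 over 13 tested, 12 of them positive, of which PRR5 alone passed the call rule. With 1 library left out the number that passed was 1 to 4. In EXPA1 OE fitted alone it was 5 (median 1.08) and in WT fitted alone it was 1 (0.61). PRR5, a repressor of the morning genes, stood at 13.1 and 6.38 CPM in EXPA1 OE and 2.37 and 1.83 CPM in WT in replicates 1 and 2, against 0.485 and 0.589 CPM in EXPA1 OE and 0.504 and 0.616 CPM in WT in replicates 3 and 4 (log2 difference 3.00, SE 0.47). The 4 libraries of replicates 3 and 4 were nearly level while replicates 1 and 2 lay above them and apart by genotype. The evening complex genes LUX (0.95, SE 0.13) and ELF3 (0.88, SE 0.09) did not overlap between the pairs and stayed just under the fold, and ELF4 had a difference of 0.05 (SE 0.18).

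Among the 13 morning genes, LHY was lower at 33.5 and 40.7 CPM in EXPA1 OE and 104 and 88.6 CPM in WT, against 101 and 127 CPM in EXPA1 OE and 179 and 151 CPM in WT (-1.18, SE 0.18), with an overlap across genotypes and none within either. PRR7 (1.16), RVE7 (1.16) and RVE2 (1.13) were higher, though PRR7 (0.98) did not pass without EXPA1 OE replicate 4, RVE7 (0.995) not without EXPA1 OE replicate 1, and RVE2 (down to 0.93) not without either. Fitted alone, EXPA1 OE had 5 morning genes higher and 1 lower (median 0.40), and WT had 0 higher and 0 lower (0.04). The labels give no time of harvest.

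Nuclear photosynthesis genes showed a small and even difference. None of 39 reached the fold, 37 were positive, the median was 0.45, and in 31 all 4 libraries of replicates 1 and 2 lay above the other 4, where 10.6% of all genes tested did. In chlorophyll synthesis PORB, a light-driven reductase, was higher (1.22). Of 21 starch genes 3 were lower: GBSS1, which makes amylose, stood at 18.7 and 26.5 CPM in EXPA1 OE and 82.5 and 56.3 CPM in WT in replicates 1 and 2, against 140.3 and 164 CPM in EXPA1 OE and 289 and 243 CPM in WT in replicates 3 and 4 (-2.33, SE 0.21), and the beta-amylase BAM3 (-1.58) and the ADP-glucose enzyme APL3 (-1.41) went with it. The nitrate reductase NIA1 (1.299), GDH2 (1.40), a glutamate dehydrogenase, and BT2 (1.14, and 0.99 and not past the rule without EXPA1 OE replicate 3) were higher among 15 nitrate response genes. CPD, an enzyme of brassinosteroid synthesis, was at 193 and 149 CPM in EXPA1 OE and 183 and 178 CPM in WT, against 79.0 and 65.8 CPM in EXPA1 OE and 66.3 and 69.6 CPM in WT (1.33, SE 0.09).

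**Figure D3:**
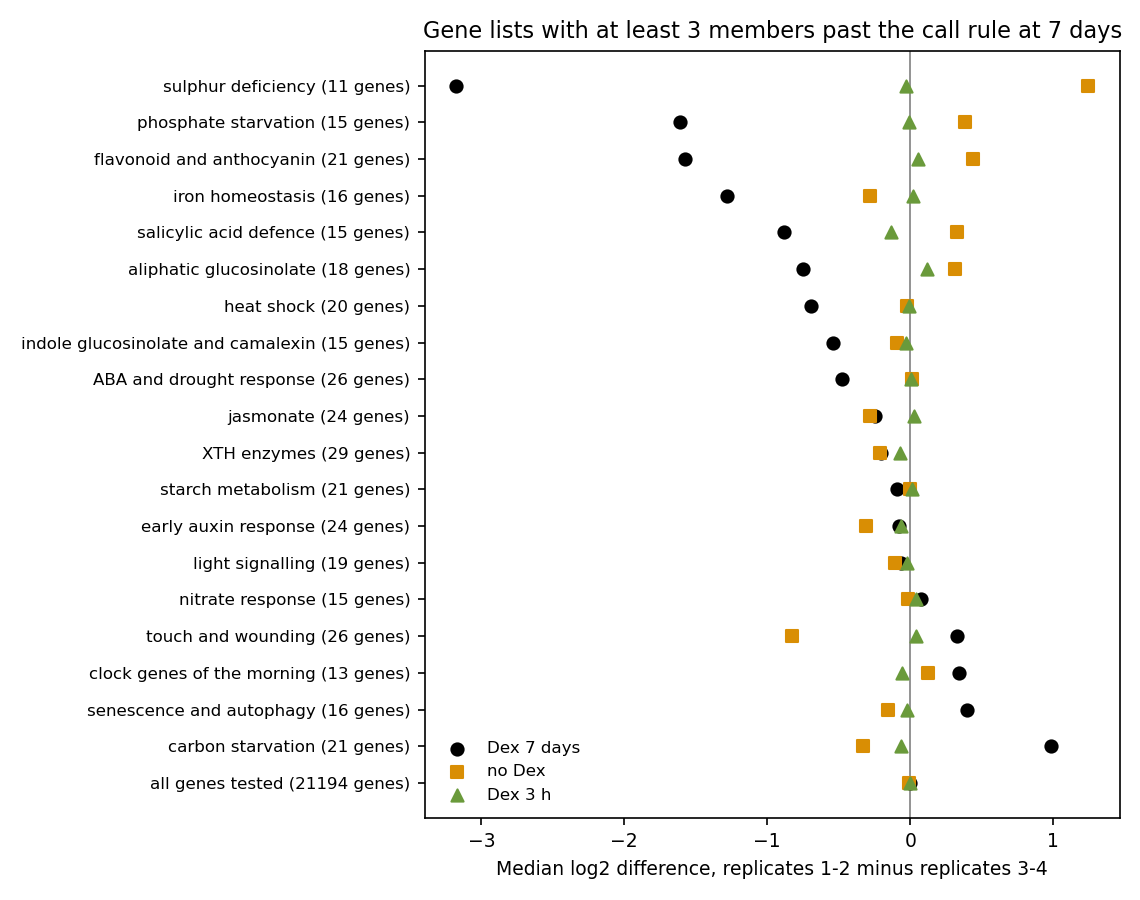
Median log2 difference of replicates 1 and 2 minus replicates 3 and 4 for each gene list with at least 3 members past the call rule at 7 days, and for all genes tested (circles, Dex for 7 days; squares, no Dex; triangles, Dex for 3 h). The sulphur list lies at -3.17 at 7 days and 1.24 without Dex, and the carbon starvation list at 0.99 and -0.33.

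Defence and stress lists were lower in part, where 3.37% of all genes tested were called lower and 1.34% higher. Past the call rule were 6 of 20 heat shock genes (median -0.70), among them the chaperone HSP70 (-1.99), 5 of 15 salicylic acid genes (-0.88, and 3 to 7 with 1 library left out, with PR2 and EDS5 lost without EXPA1 OE replicate 1 or replicate 4), among them the regulator SARD1 (-1.95), 5 of 24 jasmonate genes (-0.24, from -0.70 to -0.15 and 4 to 7 genes with 1 library left out, AOS being lost without EXPA1 OE replicate 1, replicate 3 or replicate 4), among them the enzymes LOX2 (-1.76) and AOC1 (-1.29), and 5 of 26 ABA and drought genes (-0.48, from -0.76 to -0.35 and 4 to 7 genes with 1 library left out), among them RD20 (-2.05). RD20, a drought-induced caleosin, was at 3.01 and 2.85 CPM in EXPA1 OE and 3.73 and 3.43 CPM in WT, against 14.6 and 15.9 CPM in EXPA1 OE and 14.0 and 10.3 CPM in WT. PR2 was also lost without EXPA1 OE replicate 2 and in the fit of all 24 libraries. Fitted alone, EXPA1 OE had 10 jasmonate genes lower (median -0.78), and WT had 1 lower and 1 higher (-0.10). The ABA and drought list had 11 lower in EXPA1 OE (-0.96) and 4 in WT (-0.24). The genotypes were closer for heat shock (5 and 5 lower) and salicylic acid genes (4 and 3). These differences between genotypes were not tested. All 18 aliphatic glucosinolate genes had a negative difference (median -0.75) and 3 passed, of which CYP79F1, the first enzyme for methionine-derived glucosinolates, was the lowest at -1.51, CYP83A1 (-0.98) did not pass without EXPA1 OE replicate 1, and FMOGS-OX1 (-0.93 at the nearest to 0) did not without EXPA1 OE replicate 1 or replicate 4. The senescence and autophagy list had 3 higher, SAG21 (1.32), ATG8F and ATG8E, of which ATG8F (down to 0.98) did not pass without replicate 1 of either genotype and ATG8E (down to 0.94) not without WT replicate 1 or WT replicate 3, and 1 lower, SAG13 (-2.21).

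In lists of growth and cell types few genes reached the fold. None of 19 cell division genes (median 0.02), 16 DNA replication genes (-0.33), 12 ribosome biogenesis genes (-0.30), 12 guard cell genes, 13 stomatal lineage genes or 9 phloem genes (0.18) passed the call rule. Small differences ran through some of them. A negative difference was found in 15 of the 16 DNA replication genes and 10 of the 12 ribosome biogenesis genes, and a positive one in 7 of the 9 phloem genes. Of the cell division genes 10 were positive and 9 negative, and of all genes tested 10631 and 10563. These signs describe a division chosen on the same libraries and were not tested. The 17 root hair genes, which should be low in shoots, summed to 13.4 and 18.19 CPM in EXPA1 OE replicates 1 and 2 against 45.3 and 47.2 CPM in replicates 3 and 4, and to 25.2 and 47.3 CPM in WT against 31.3 and 38.1 CPM. None of the 17 passed, though up to 9 were lower when 1 library was left out. The 12 genes of other root tissue summed to 926 to 1706 CPM in replicates 1 and 2 and to 1124 to 1837 CPM in replicates 3 and 4, with none past the rule, and their part in the results was not tested. Of the seed maturation genes only SESA1 passed, at 0 and 0.0779 CPM in EXPA1 OE and 0.0852 and 0.0172 CPM in WT, against 0.408 and 0 CPM in EXPA1 OE and 0.923 and 5.73 CPM in WT, and it did not pass without WT replicate 1 or WT replicate 4 (-5.23, and -3.45 at the nearest to 0).

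Of the cell wall (CW) genes that the study is about, 3 of 29 XTH genes and 1 of 25 expansins passed the call rule, beside 4.72% of all genes tested, so that the expansin share was near that of all genes. With 1 library left out, 2 to 6 XTH genes and 0 to 3 expansins were lower. XTH31, a wall-modifying enzyme, was at 20.2 and 34.5 CPM in EXPA1 OE and 64.2 and 61.4 CPM in WT, against 79.9 and 115 CPM in EXPA1 OE and 202 and 182 CPM in WT (-1.72, SE 0.17). Its relative XTH32 was lower by -1.61 and XTH25 was higher by 2.19, both without overlap. EXPB1 (-1.07) was lower and did not pass without EXPA1 OE replicate 1 (-0.86).

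With each genotype fitted alone, 1230 genes passed in EXPA1 OE and 815 in WT, 396 of them in both with the same direction and 8 with opposite directions. The 1000 genes were called from both genotypes together, so their order within each genotype is largely set by that choice and nothing is read from it. Of the 285 higher genes, 271 had both libraries of replicates 1 and 2 above both of replicates 3 and 4 in each genotype, and of the 715 lower genes 669 had both below; over all genes tested 40.9% had the same order in both genotypes. The higher genes had a median of 1.41 in EXPA1 OE and 1.31 in WT, and the lower genes one of -1.66 in EXPA1 OE and -1.19 in WT. For the sulphur list the medians were -3.73 in EXPA1 OE and -2.68 in WT, for phosphate -1.58 and -1.66, for flavonoids -1.83 and -1.38, and for carbon starvation 1.07 and 0.91. Whether the genotypes differed was not tested.

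The medians of several sets were unequal in the genotypes. Touch and wounding genes had -0.31 in EXPA1 OE and 0.65 in WT, seed maturation genes -0.99 and 0.11, and XTH genes -0.33 and 0.25. Low oxygen genes had a median of -2.43 in EXPA1 OE and 0.76 in WT. ADH1, the alcohol dehydrogenase of fermentation, chosen after its values were seen, stood at 5.14 and 6.05 CPM in EXPA1 OE replicates 1 and 2 against 48.1 and 60.8 CPM in replicates 3 and 4, and at 22.4 and 34.3 CPM in WT against 18.5 and 23.99 CPM. LBD41, a repressor induced by oxygen shortage, went against the WT median, at 3.63 and 3.61 CPM in EXPA1 OE against 18.8 and 30.3 CPM, and at 7.33 and 8.05 CPM in WT against 9.01 and 19.3 CPM. After 3 h of Dex the 11 genes had a median of -0.92, and 8 of them were lower and 0 higher at an unadjusted p under 0.05, with none called by edgeR. Their summed CPM was then 81.9 and 167 in EXPA1 OE replicates 1 and 2 against 350.3 and 376 in replicates 3 and 4, and 99.3 and 130.2 in WT against 71.3 and 149.8. EXPA1 OE replicate 2 of that treatment stood apart from the other libraries, with 10.8% of its reads from plastid genes. Root hair genes had a median of -1.83 in EXPA1 OE and 0.02 in WT at 7 days. The 7-day medians rest on 2 libraries against 2 in each genotype, and their difference was not tested.

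**Figure D4:**
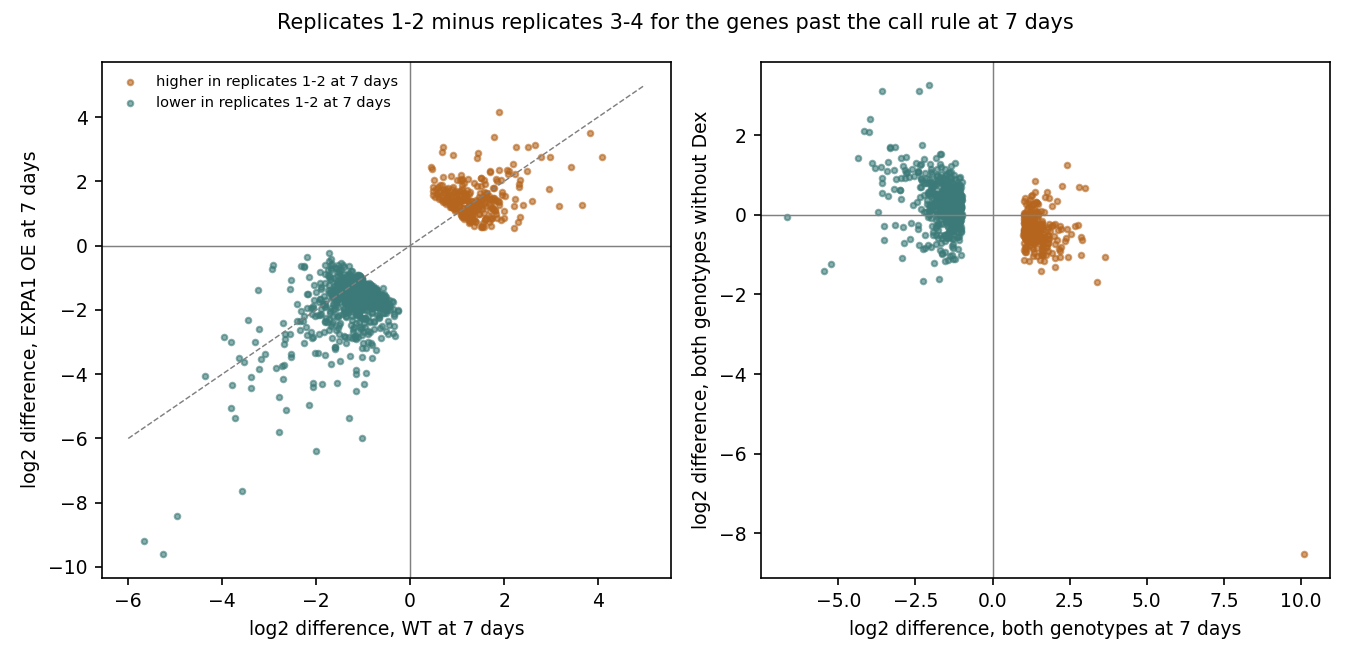
Log2 differences of replicates 1 and 2 minus replicates 3 and 4 for the genes past the call rule at 7 days: left, EXPA1 OE against WT; right, shoots without Dex against shoots at 7 days (1 point per gene, dashed line of equality). On the left the genes keep their sign in both genotypes, which their choice from both together favours; on the right the higher genes have a median of -0.39 without Dex and the lower genes one of 0.29, and the lone point at the lower right is the locus AT5G50700, annotated HSD1.

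The lone point was singled out after it was seen. AT5G50700 and AT5G50600 are both annotated HSD1, a hydroxysteroid dehydrogenase. AT5G50700 was at 1.24 and 0 CPM in EXPA1 OE and 2.05 and 5.74 CPM in WT in replicates 1 and 2, against 0 CPM in all 4 libraries of replicates 3 and 4. The sum of both loci was 2.07 and 1.82 CPM in EXPA1 OE and 6.54 and 7.62 CPM in WT, against 2.4999 and 1.296 CPM in EXPA1 OE and 4.92 and 5.998 CPM in WT. How reads that match both loci were divided between them was not tested, and the value of either locus alone is uncertain.

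The libraries that the division was not drawn from allow a test of the same replicate numbers, for a difference shared by both genotypes. A parting in 1 genotype alone adds to the residual spread of such a fit. Neither genotype was fitted alone in these libraries, so 0 calls cannot show that neither of them parted. Without Dex, edgeR called 0 of 21076 genes (0%) between replicates 1 and 2 and replicates 3 and 4, with 5796 (27.5%) at an unadjusted p under 0.05, and DESeq2 called 74 (0.397%). After 3 h of Dex, edgeR called 0 of 21011 genes (0%), with 1483 (7.06%) at an unadjusted p under 0.05, and DESeq2 called 9 (0.0359%). In the 16 libraries together edgeR called 0 of 21520 (0%), with 4517 (21.0%) at an unadjusted p under 0.05, and DESeq2 called 15 (0.0802%). Without Dex, leaving out EXPA1 OE replicate 3 gave 68 calls by edgeR, leaving out EXPA1 OE replicate 2 gave 32 and leaving out WT replicate 1 gave 2, and after 3 h leaving out EXPA1 OE replicate 1 gave 30.

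Without Dex the genes that parted the 7-day shoots had medians of the opposite sign, unequally in the genotypes. The 285 genes higher in replicates 1 and 2 at 7 days had a median of -0.39 without Dex, and of the 277 tested there 6 were higher and 135 lower at an unadjusted p under 0.05. The 715 lower genes had a median of 0.29, and of the 685 tested 272 were higher and 16 lower at that level. Over all genes the median was -0.01, and of those also tested at 7 days 2990 were higher and 2786 lower at that level. No adjusted p among them was under 0.0867 by edgeR, so the reversal is not established for any single gene. By log2 CPM, the higher genes had a median of -0.16 in EXPA1 OE and -0.58 in WT, and in 75 of 277 (27.1%) and 196 of 277 (70.8%) both libraries of replicates 1 and 2 lay below both of replicates 3 and 4, where 20.3% and 36.7% of all genes did. The lower genes had a median of 0.27 in EXPA1 OE and 0.31 in WT, and 310 of 685 (45.3%) and 348 of 685 (50.8%) had both libraries above, where 21.2% and 33.3% of all genes did. Whole libraries also parted more in WT, with correlations of log2 CPM of 0.991 to 0.993 within a pair and 0.976 to 0.979 between pairs. In EXPA1 OE they were 0.991 to 0.992 and 0.989 to 0.991. In untreated WT the chi-square per degree of freedom was 14.3 to 28.9 within a pair and 84.6 to 186 between pairs. WT at 7 days had 12.04 to 17.0 and 100 to 112, and untreated EXPA1 OE had 5.73 to 11.6 and 4.23 to 23.3. Untreated WT replicates 3 and 4 stood apart with 3.56% and 2.44% of reads from plastid genes and 1.63% and 0.995% from rRNA genes, against 1.14% and 1.502%, and 0.421% and 0.596%, in WT replicates 1 and 2, and the part of this in the result was not tested. After 3 h the medians were -0.06 and 0.00, and 4 higher against 21 lower, and 36 higher against 31 lower, had an unadjusted p under 0.05.

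LSU2, which stood at the lowest adjusted p given above, shows this reversal library by library. Without Dex it was at 1.40 and 1.04 CPM in EXPA1 OE and 10.8 and 5.23 CPM in WT in replicates 1 and 2, against 0.678 and 0.308 CPM in EXPA1 OE and 1.28 and 1.57 CPM in WT in replicates 3 and 4 (log2 difference 2.08, SE 0.35, adjusted p 0.0867 by edgeR). Within each genotype replicates 1 and 2 were the higher ones, against the order at 7 days. SEN1 without Dex was at 68.5 and 78.3 CPM in EXPA1 OE and 15.1 and 19.6 CPM in WT, against 65.3 and 113 CPM in EXPA1 OE and 74.0 and 45.5 CPM in WT (-1.02, adjusted p 0.113 by edgeR), so that here the reverse order was present in WT alone. The sulphur list had a median of 1.24 without Dex and of -0.03 after 3 h, and the flavonoid list of 0.44 and 0.05. The carbon starvation list had a mean log2 CPM without Dex of 5.29 and 5.36 in EXPA1 OE replicates 1 and 2 against 5.25 and 5.61 in replicates 3 and 4, and of 4.52 and 4.77 in WT against 5.45 and 5.18, so that it parted the pairs in WT and not in EXPA1 OE.

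**Figure D5:**
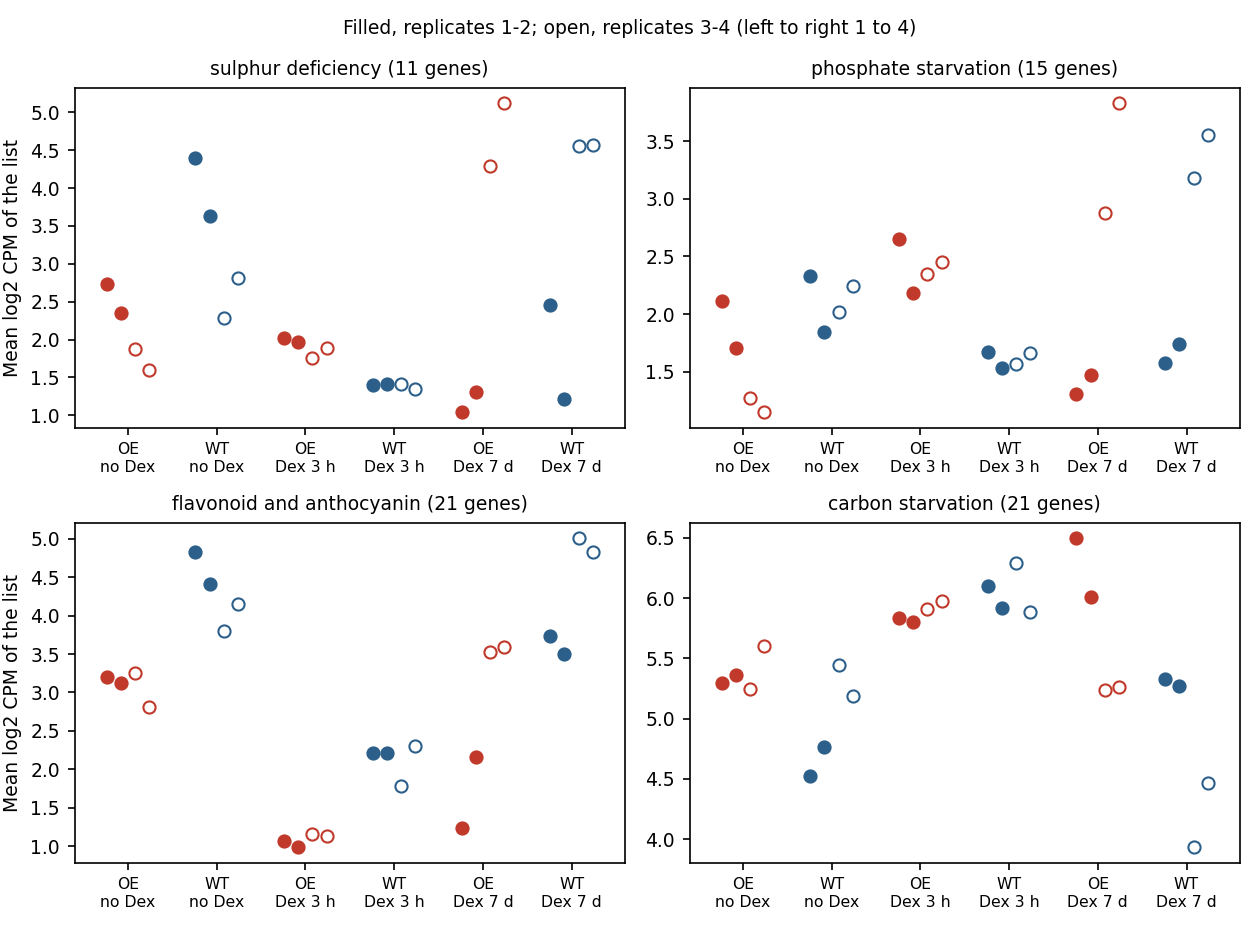
Mean log2 CPM of 4 gene lists in the 24 libraries (filled, replicates 1 and 2; open, replicates 3 and 4; red, EXPA1 OE; blue, WT; within a group from left to right replicates 1 to 4). At 7 days the sulphur, phosphate and flavonoid lists lie lower and the carbon starvation list lies higher in replicates 1 and 2 of each genotype, whereas without Dex the sulphur list lies higher in them.

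Relative to untreated shoots of the same age and genotype, replicates 1 and 2 differed for the higher genes by a median log2 value of 0.91 in EXPA1 OE and 0.67 in WT, and replicates 3 and 4 by -0.56 and -0.61. For the lower genes these medians were -0.75 and -0.66 in replicates 1 and 2, and 0.95 and 0.58 in replicates 3 and 4. Since these genes were chosen for a gap between the pairs, any other level tends to fall inside it, and nothing is read from the signs.

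In all, 10 motifs, among them those marked above, were counted in the promoter windows of 27437 genes on both strands. The higher and lower genes were chosen from these same libraries, and no share was tested. The evening element AAATATCT was in 17.8% of the windows of genes higher in replicates 1 and 2 (46 of 258), in 6.76% of those of lower genes (47 of 695) and in 5.90% of those of all genes tested, and in 10 of the 13 evening clock genes. GNATATNC was in 9 of the 15 phosphate genes, against 6.22% of all genes tested, and in 10.1% of the higher and 8.49% of the lower genes. The G-box CACGTG was in 13.6% of the higher and 11.8% of the lower genes, against 9.06% of all genes tested, in 7 of the 16 iron genes and in 7 of the 21 flavonoid genes. GGCCCA, known from promoters of growth genes, was in 10.9% of the higher and 7.19% of the lower genes, against 18.5% of all genes tested. In the same order CCGAC was in 14.3%, 12.9% and 16.1%, and TTGACC in 11.6%, 14.1% and 14.2%. CGCGTT was in 3.1%, 3.6% and 3.71%, and GCCGCC in 2.33%, 1.44% and 2.58%. AACCCTA was in 3.1%, 5.32% and 7.73%, and AACGG in 20.5%, 21.0% and 26.0%. A match describes the letters of a window and does not show that a factor binds there.

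The study compared EXPA1 OE with WT at 7 days, and the parting of the replicates lies across that comparison. Without a term for it edgeR called 801 of 20665 genes (3.88%), 459 higher (2.22%) and 342 lower (1.65%) in EXPA1 OE. With the pair of replicates as a term it called 1219 (5.90%), 600 higher (2.90%) and 619 lower (3.00%), and with the replicate number as a block 1147 (5.55%), 580 higher (2.81%) and 567 lower (2.74%). Of the 801 genes 794 were also called with the pair term, and of the 425 called only with it 228 were among the 1000 that parted the pairs. No gene called in both fits turned its direction. The pair term was chosen because it split these same libraries, so a smaller residual error follows from the choice, and the calls gained with it are a description and no test. The replicate block contains the same split, so this holds for its calls too.

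EXPA1 itself differed by 5.10 without the term (SE 0.21, adjusted p 1.08e-05 by edgeR) and by 5.11 with it (SE 0.12). EXPB3, a wall-loosening expansin, was at 24.1, 35.3, 50.0 and 55.2 CPM in EXPA1 OE replicates 1 to 4, against 60.3, 52.8, 116 and 118 CPM in WT replicates 1 to 4. Its log2 difference was -1.07 (SE 0.34, adjusted p 0.0714 by edgeR) without the term and -1.04 (SE 0.12) with it. DESeq2 without the term called EXPB3 (adjusted p 0.0134), so its call depended on the tool as well. The same held for EXPB1, at -1.45 without the term (adjusted p 0.0729 by edgeR, 0.0135 by DESeq2) and -1.48 with it, for EXLA1, at 1.1997 (0.0553 by edgeR, 0.00581 by DESeq2) and 1.24, and for XTH23, at 1.41 (0.0915 by edgeR, 0.0176 by DESeq2) and 1.16. XTH31, at -1.03 without the term, was called by neither tool (adjusted p 0.270 by edgeR, 0.275 by DESeq2) and had -1.08 with it. With the replicate block EXPB3, EXPB1 and XTH31 passed the call rule by edgeR, and EXLA1 and XTH23 did not. These calls are a description as well, since the block contains the split of the pairs.

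Among the lists, the flavonoid list went to 19 of 21 genes lower in EXPA1 OE with the pair term, against 2 without it, and the carbon starvation list to 10 of 21 higher, against 3. Salicylic acid genes went to 6 lower, against 2, and seed maturation genes to 17 lower, against 11. Expansins went to 3 higher and 5 lower, against 2 and 3, and XTH genes to 4 higher and 2 lower, against 3 and 1. Over all genes tested 2.90% were higher and 3.00% lower with the pair term, against 2.22% and 1.65% without it.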

How the data were processed

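RNA was measured in polyA-selected directional libraries of whole shoots, 24 in all, of which the 8 taken after 7 days of Dex are described. The paper and the labels name different library kits, and the paper says that unique molecular identifiers were included to detect duplicates, while whether these counts had duplicates removed is not given in the sources used here. Reads were trimmed with Trimmomatic, aligned with STAR to TAIR10 and quantified with RSEM and featureCounts, per the submitters' processing notes. The expected counts that the authors deposited are RSEM estimates per gene, not normalised, and 3.82% of them were not whole. A second table deposited by the authors holds featureCounts counts over exons, used as an alternative. No column was left out.

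Expected counts were rounded to whole numbers, genes with low counts were removed with filterByExpr, and libraries were scaled by TMM. Differences were fitted with the quasi-likelihood test of edgeR (version 4.0.16, with limma 3.58.1, in R 4.3.3), with genotype as a covariate for the replicate pairs, and a call needed both an adjusted p (Benjamini-Hochberg) under 0.05 and a log2 difference of at least 1, the thresholds of the study. The SE is the absolute log2 difference divided by the square root of the F statistic of that edgeR test. For the pairs at 7 days it is a description of spread and no test. CPM were computed with the TMM-scaled library sizes of all 24 libraries, and log2 CPM, used for components and list means, with a prior count of 2. DESeq2 (version 1.42.0) was an alternative, and tables and plots used Python 3.11.15, pandas 2.3.3, numpy 2.4.6 and matplotlib 3.10.9. The fits were tested on simulated data with known changes. Depth was 33.6 M to 82.2 M reads per library. Labels call the samples biological replicates and say nothing more of their cultures, so p-values measure the spread between these samples.

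The replicate pairs, the 47 gene lists and the motifs were chosen with earlier results of these data known. Genes were named by a rule: the 10 largest differences in each direction among called genes with a mean of at least 1 CPM and no overlap between the pairs, up to 4 genes per list with the smallest p, genes called both at 7 days and in the 16 other libraries (0 were), and EXPA1 with the expansin and XTH genes whose call differed with the pair term. Other members are given with their list. Promoter sequences were read from the RefSeq assembly TAIR10.1 by the annotated gene start.

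At 7 days libraries with the same replicate number deviated together from their group means (correlations across genes of 0.168 to 0.495, over 0.1 for 4 of 4 numbers), but libraries of the same pair with another number did so as well (0.318 to 0.428). Without Dex the same-number correlations were -0.0559 to 0.0400, and after 3 h they were 0.00809 to 0.111. The pairing by number at 7 days thus comes from the data and not from the labels. Alternatives were other scalings, filters and counts, DESeq2, no fold threshold, a test against the fold, all 24 libraries in 1 fit, the replicate block, the pair term, and each library left out.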

Additional observations from a re-analysis of the deposited data

Results flagged for a closer look

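In each group of 4 libraries at 7 days the highest and the lowest value were compared with the others, and 3 of 108 groups examined held a library far from the rest, where chance gives about 1 in 20. EXPA1 OE replicate 1 had a mean log2 CPM of 0.79 for the genes of other root tissue. WT replicate 4 had a total of 79.9 M reads. WT replicate 2 had a mean log2 CPM of 3.73 for the cell division genes.

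For 5 lists both libraries of replicates 1 and 2 lay beyond both of replicates 3 and 4 in each genotype, in one direction at 7 days and in the other without Dex. Values are the mean log2 CPM of replicates 1 and 2 minus replicates 3 and 4, and these differences between treatments were not tested. Sulphur deficiency genes had -3.13 at 7 days and 1.14 without Dex. Salicylic acid defence genes had -0.93 at 7 days and 0.31 without Dex, and ribosome biogenesis genes had -0.28 and 0.38. Nuclear photosynthesis genes had 0.38 at 7 days and -0.23 without Dex, and chlorophyll synthesis genes had 0.23 and -0.08.

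For a pair of lists the genotypes moved in opposite ways at 7 days, with both libraries of one pair beyond both of the other in each genotype. This was not tested either. Low oxygen genes had -2.12 in EXPA1 OE and 0.49 in WT. Primary wall cellulose genes had -0.21 in EXPA1 OE and 0.08 in WT.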

How the results depend on the processing

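At 7 days the pair comparison called 1000 genes, against 7379 with no fold threshold (3727 higher, 3652 lower), 58 with a test against the fold (17 higher, 41 lower), 1055 with DESeq2, 717 with at least 10 counts in every library and 792 to 1151 with 1 library left out. Among 206 named genes under 19 alternatives there were 3887 values, as 27 were not tested under an alternative: 0 turned their direction, 3686 kept their side of the thresholds, 139 fell short of them and 62 newly passed. Without Dex edgeR called 0 genes, DESeq2 74 and edgeR with no filter 34, and leaving out 1 library gave 0 to 68. After 3 h edgeR called 0, DESeq2 9 and edgeR scaled by library totals 1, and leaving out 1 library gave 0 to 30. In the 16 other libraries edgeR called 0, DESeq2 15 and edgeR with no filter 4, and leaving out 1 library gave 0 to 2. The cause was not tested. EXPA1 OE against WT at 7 days gave 801 genes, against 2912 with no fold threshold, 135 with a test against the fold, 1219 with the pair of replicates as a term, 1147 with the replicate block, 1161 with DESeq2 and 570 to 809 with 1 library left out. Every fit that leaves out a library assumes that the lone library of a genotype and pair varies like the others. Low genes, such as those under 1 CPM, rest on few reads in the EXPA1 OE libraries.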
